A study of Mus musculus with 6 samples.

Results

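The reversal step of an epithelial to mesenchymal transition was described across genes: cells from which TGF-β had been withdrawn for 13 days after 11 days of treatment were compared with cells still at day 11 of treatment. The 4 arrays of this comparison, 2 per group, were taken from the 6 arrays of the series by their titles and treatment entries. All are of NMuMG, an immortal line of epithelial cells that came from the mammary gland of a normal mouse, grown in DMEM with 10% fetal bovine serum, 1% penicillin and streptomycin and 1% insulin. The TGF-β group received the cytokine at 4 ng/ml for 11 days. The withdrawal group received the same dose for the same 11 days and was then kept 13 days without it. The other 2 arrays are of control cells given vehicle, and they show below where each gene stood in cells never treated. The withdrawn cells were harvested 13 days later, so the loss of TGF-β and the longer culture cannot be told apart. The titles give no day for the control arrays, so control is not known to match either treated group in time of culture. The part of culture time in the distances from control below cannot be told apart either. Nothing in the labels states that a group's 2 arrays were grown as separate cultures, and the spread behind each p-value may be technical.

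TGF-β binds a pair of serine/threonine kinase receptors that phosphorylate Smad proteins, which then enter the nucleus and change transcription. In NMuMG cells it is known for loosening cell junctions, building actin stress fibres and depositing matrix, steps driven in part by transcription factors of the Snail, Zeb and Twist families, and for lowering the Id proteins that BMP signals maintain. Taking the ligand away lets Smad activity decay, and epithelial cells can then rebuild junctions, the process called mesenchymal to epithelial transition.

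The junction gene Cdh1, which encodes E-cadherin, was at log2 levels of 8.37 and 8.25 on the TGF-β arrays and 11.80 and 11.79 on the withdrawal arrays, beside 11.99 and 11.89 in control. Tagln, which encodes the actin-binding protein transgelin, was at 12.69 and 12.61 under TGF-β and at 6.97 and 6.82 after withdrawal, beside 6.89 and 6.92 in control. The treated groups lay far apart for both genes, and withdrawal lay next to control. In the labels' description entries the state names of the treated groups are swapped. The groups here follow the titles and treatment entries. Of the epithelial defining markers, Krt8 and Krt18, keratins of simple epithelia, were bright on all arrays, while Epcam lay between 6.87 and 7.21 and Cldn7 between 4.85 and 5.11, levels that no detection call separates from background. In bulk RNA, fewer cells with a transcript and less of it per cell cannot be told apart.

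Of 18193 genes measured, 3960 (21.8%) were higher and 4023 (22.1%) lower after withdrawal by limma at a Benjamini-Hochberg adjusted p under 0.05, together 43.9%. Each difference below is withdrawal minus TGF-β in log2 units unless another is named, so that 1 is a fold of 2, and "called" means past that threshold. Of the called genes 874 (4.80% of all) rose by at least 1 and 568 (3.12%) fell by at least 1. At 3 or more the counts were 57 up and 19 down, so the large changes leaned upward. The median over all genes was -0.03. The arrays of the groups did not overlap for 69.0% of genes, so an array gap alone says little. Arrays of a group correlated at 0.998 over genes, and TGF-β with withdrawal arrays at 0.974 to 0.975. RMA fixes the arrays to a common distribution: of the calls 49.6% were upward, but 54.3% after cyclic loess, 70.0% when scaled to the poly-A RNAs added before labelling and 21.6% when scaled to the hybridization spikes, which moved the median gene to 0.12 and -0.25. Changes are therefore relative to the common level of the arrays, and small ones have no settled sign. Of the 88 counts of list members called higher or lower below, 10 moved by over 1.5 times with cyclic loess, 34 with poly-A and 40 with hybridization spike scaling. Each such count stands against 21.8% higher and 22.1% lower over all genes, and a share near these says nothing particular of the list. The gap between 3' and 5' probe sets of Actb was 0.34 to 0.36 on the withdrawal arrays and 0.14 to 0.18 on the others, while that of Gapdh was -0.18 to -0.14 on all 6. The part of RNA quality in the results was not tested.

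**Figure D1:**
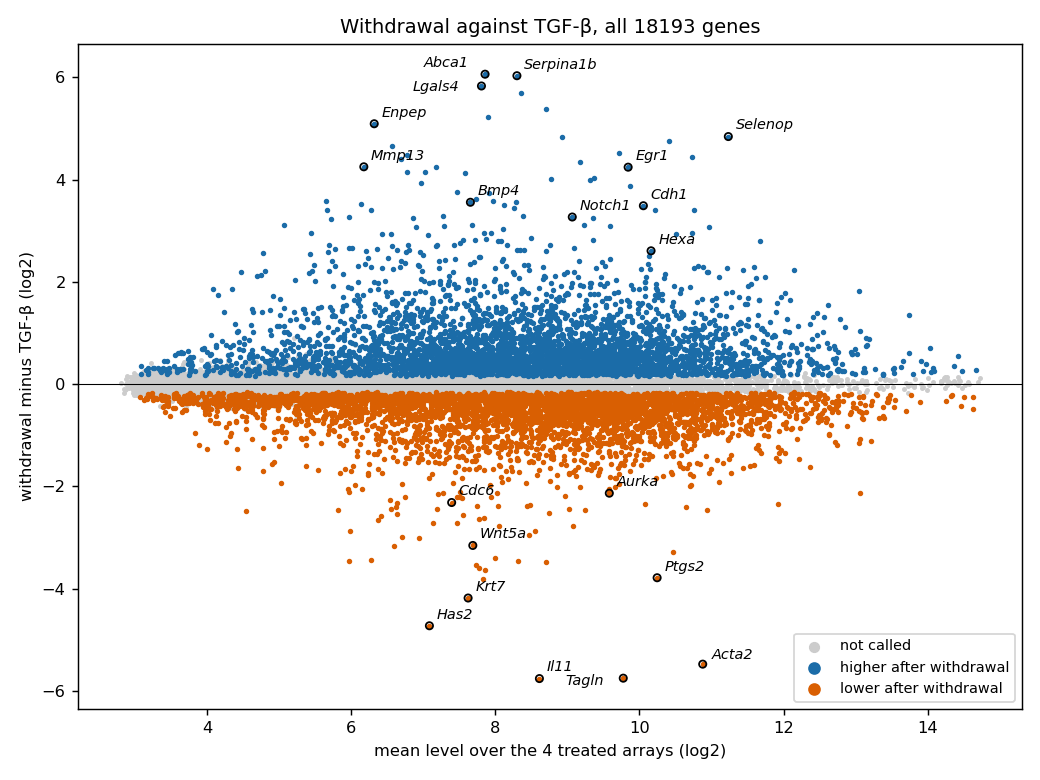
Withdrawal minus TGF-β (log2, vertical) against the mean log2 level over the 4 treated arrays (horizontal), 1 point per gene for 18193 genes. Blue points are the 3960 called higher, orange the 4023 called lower, and grey the rest; Abca1 at 6.06 and Il11 at -5.76 are the outermost named genes.

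Genes of actin and smooth muscle contraction fell together. Of 31 measured, 23 were called lower and 1 higher (2 higher without the second withdrawal array), with a median of -0.66, against 22.1% lower and 21.8% higher over all genes and a median of -0.03. Tagln fell by 5.75 ± 0.069 (SE; adjusted p = 6.52e-07, limma), to a level 0.01 below control. Acta2, which encodes smooth muscle α-actin, went from 13.63 and 13.61 to 8.08 and 8.20, a fall of 5.48 ± 0.060, and ended 0.67 below control. Its other probe sets were dim, at -2.02 and -0.18. Myl9, a regulatory light chain of myosin, went from 9.53 and 9.48 to 5.98 and 5.94 and stayed 1.03 above control. Cnn1, which encodes calponin, fell by 3.00 and Pdlim7, a scaffold of actin bundles, by 1.84. The exception was Mylk, the kinase that phosphorylates the myosin light chain, which rose by 2.51 from 5.83 and 5.63 to 8.24 and 8.25, beside 8.04 and 8.10 in control. Tpm2 and Myh11 were at 0.11 and 0.00 and were not called. Cytoplasmic Actb was at -0.25, a fall in a gene whose 3' to 5' gap also moved.

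Short motifs were set against these promoters, because serum response factor, with its cofactors, and the TEAD factors are known regulators of contractile genes. The 200 bases before the annotated start (RefSeq, GRCm38.p6) are shown for Myl9 (chr2:156775264-156775463, plus strand), with a CArG box, the site of serum response factor, in capitals 161 bases before the start, and for Acta2 (chr19:34255374-34255573, minus strand), with the TEAD motif GGAATG in capitals at 146 bases.
Myl9: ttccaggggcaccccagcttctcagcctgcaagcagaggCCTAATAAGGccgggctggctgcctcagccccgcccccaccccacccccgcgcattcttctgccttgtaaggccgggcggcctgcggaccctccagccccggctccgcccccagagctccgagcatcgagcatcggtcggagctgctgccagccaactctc
Acta2: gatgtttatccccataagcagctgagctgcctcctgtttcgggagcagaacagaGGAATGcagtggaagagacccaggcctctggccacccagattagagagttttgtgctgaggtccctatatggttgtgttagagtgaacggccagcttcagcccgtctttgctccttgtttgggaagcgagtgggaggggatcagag
The 250 bases before the start were searched on both strands. A CArG box was counted only as CCWWWWWWGG, where W is A or T. Of the 27 contractile genes with a window 4 held this exact pattern (14.8%, against 1.62% of all 27025 genes), namely Actg1, Cnn2, Myl6 and Myl9. Near matches were not counted, such as CCCTATATGG and CCTTGTTTGG in the Acta2 bases shown. GGAATG or its complement CATTCC was in 11 of 27 (40.7%), against 14.4% of all genes. The E-box CACCTG was in 4 of 27 (14.8%, against 19.4% of all genes) and the SMAD motif CAGAC in 11 of 27 (40.7%, against 45.8%). DR4 was in 0 and the AP-1 motif in 3 (11.1%, against 5.16%). Of the motifs added after the values were seen, CCAAT was also more frequent there, in 15 of 27 (55.6%, against 37.5%). CACGTG was in 2 (7.41%, against 6.86%) and TTTGAA in 2 (7.41%, against 18.3%). A match describes letters and does not show binding, and Mylk, which rose, also held a TEAD match.

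Focal adhesion genes followed, with 12 of 20 lower (5 with poly-A scaling), 1 higher and a median of -0.22. Zyx, a stress fibre protein, fell by 1.59, the tensin gene Tns1 by 1.54, the fibronectin receptor subunit Itga5 by 1.48 and Srf, serum response factor itself, by 1.01, from 8.92 and 8.85 to 7.89 and 7.87. All of these were raised under TGF-β, and Zyx, Tns1, Itga5 and Srf ended 0.09 to 0.21 above control, differences not called. Mrtfb, a cofactor of Srf, was the called rise, at 0.34. Of 16 YAP and TEAD genes 11 fell (4 with poly-A scaling, 7 with probe sets ending in x, s or a left out) and 4 rose (2 and 0 with poly-A and hybridization spike scaling, 1 with the mean of probe sets), with a median of -0.33. The tissue factor gene F3 fell by 1.56, Amotl1, which holds YAP in the cytoplasm, by 1.39, and Ankrd1, a textbook YAP target, by 1.11, while Wwtr1, which encodes the YAP relative TAZ, rose by 0.47. Ccn2, a matrix protein gene driven by both TGF-β and YAP, went from 14.12 and 14.13 to 11.92 and 12.07, under the control arrays at 12.79 and 12.73.

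Matrix genes split. Of 32 collagen and collagen-modifying genes 21 fell and 7 rose, 6 each by at least 1, with a median of -0.54. Col5a3 went from 9.59 and 9.75 to 6.09 and 5.97, Col1a1, the main chain of type I collagen, from 9.57 and 9.83 to 6.43 and 6.16, and Col7a1, of anchoring fibrils, fell by 2.47. A second, dim probe set of Col5a3, with a mean of 3.76, was also called, at -0.53. On the values given, Col5a3, Col1a1 and Col7a1 returned to within 0.42 of control, with Col1a1 still called above it. Against them, Col6a1 rose by 1.84 from 9.33 on both TGF-β arrays to 11.13 and 11.21, with Col6a2, its partner chain of type VI collagen, at 1.76. Neither had been raised under TGF-β. The procollagen cleavage enhancer Pcolce rose by 1.71 on top of a TGF-β difference of 1.20, and the crosslinking enzyme gene Loxl1 by 1.16 on top of 3.45. Lox, of the same enzyme family, fell by only 0.64 and remained 4.32 above control.

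**Figure D2:**
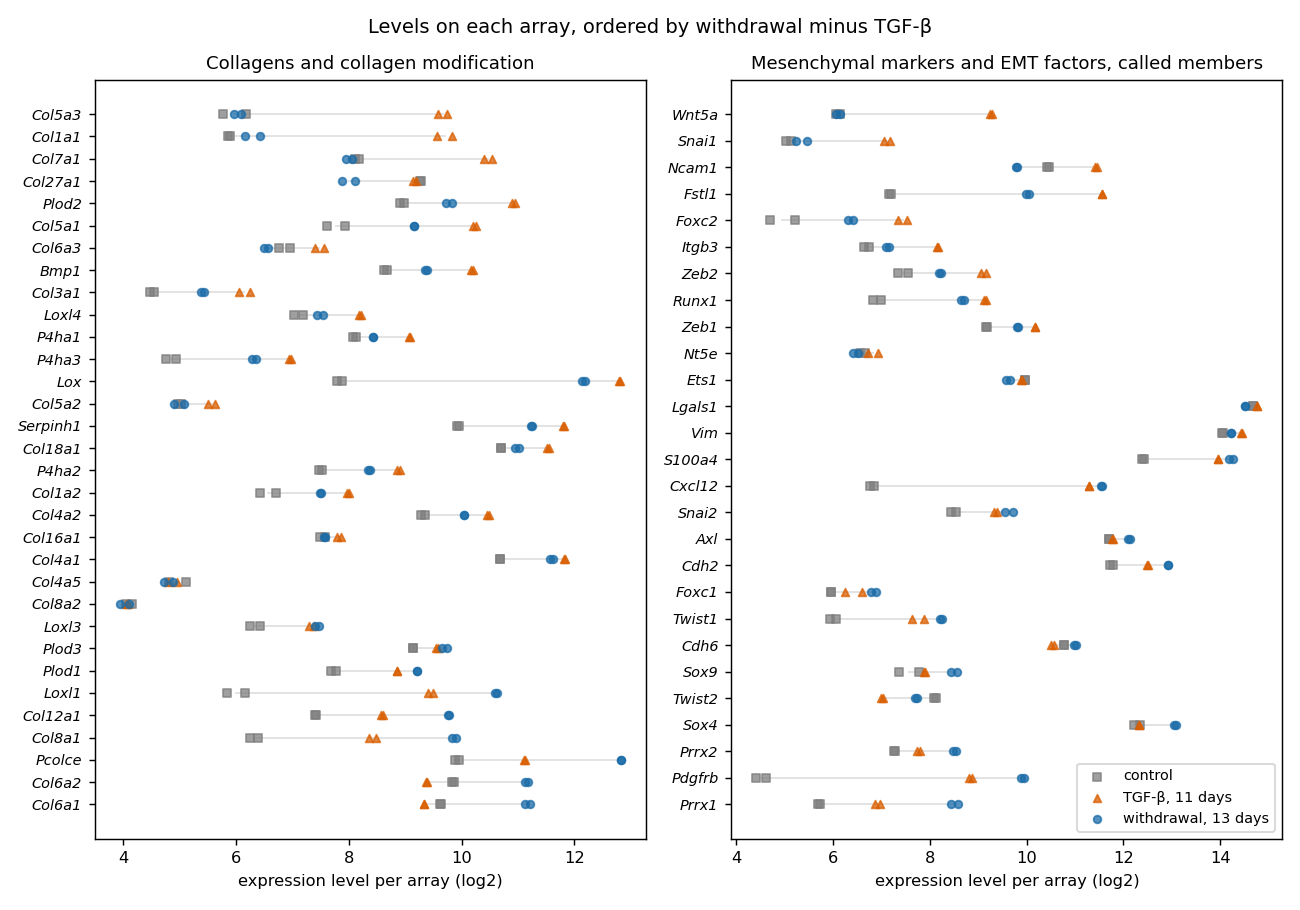
Log2 level on each of the 6 arrays (horizontal) for the 32 collagen genes (left) and for the called mesenchymal markers and EMT factors (right), ordered by withdrawal minus TGF-β; grey squares are control, orange triangles TGF-β, blue circles withdrawal. At the top, as for Col5a3 and Wnt5a, the blue circles sit on the grey squares; at the bottom, as for Loxl1 and Pdgfrb, they lie beyond the triangles.

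Among 27 matrix glycoprotein and elastic fibre genes 11 fell and 5 rose. Without the second TGF-β or the first withdrawal array 6 fell, and without the first TGF-β or the second withdrawal array 3 rose. The median was -0.12, and 0.03 with poly-A scaling. Ltbp2, of the latent TGF-β binding family, went from 9.70 and 9.76 to 6.01 and 5.84. The matricellular gene Ccn4 fell by 1.60 and the proteoglycan gene Vcan fell by 1.43. Fn1, which encodes fibronectin, moved the other way, from 13.69 on both TGF-β arrays to 14.16 and 14.13, a rise of 0.46 that was not called with hybridization spike scaling. It stood 2.11 above control. The second probe set of Fn1, with a mean of 8.10, was at -0.02 and not called. Thbs1, thrombospondin, was at -0.11 (adjusted p = 0.247) and 3.00 above control, and Sparc at -0.08 (adjusted p = 0.305). Of 9 hyaluronan genes 5 fell (3 with poly-A scaling) and 0 rose (1 with cyclic loess, an intensity trend or the dimmest genes left out), with a median of -0.36. Has2, the synthase, went from 9.48 and 9.41 to 4.66 and 4.78, which is 1.17 under control, and Tnfaip6, which crosslinks hyaluronan, fell by 1.70. Of 26 matrix protease and inhibitor genes 11 rose and 8 fell, with a median of 0.10 that turned to -0.11 with hybridization spike scaling. The collagenase gene Mmp13 went from 3.80 and 4.29 to 8.26 and 8.33, near the control arrays at 7.86 and 7.84. Adamts1, a proteoglycan-cleaving protease, rose by 2.35, while Adam12 fell by 2.96, Plau, the urokinase gene, fell by 1.75 and the inhibitor gene Timp3 fell by 1.59.

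Mesenchymal markers moved both ways. Of 19 measured, 7 fell and 6 rose, and the median of -0.12 was 0.03 with poly-A scaling. With poly-A scaling 4 fell and 4 rose, and with hybridization spike scaling 10 fell and 1 rose, so the balance depends on the scaling. Wnt5a, a noncanonical Wnt ligand, went from 9.29 and 9.24 to 6.07 and 6.14, equal to control at 6.07 and 6.16. Fstl1 fell by 1.54 and was left 2.84 above control. Pdgfrb, the receptor for PDGF-B, rose further, from 8.86 and 8.81 to 9.89 and 9.94, and was 5.40 above control. Cxcl12, a chemokine, and S100a4 were at 0.26 and 0.25, both called, and stood 4.75 and 1.81 above control. For Cxcl12 these values are of its brightest probe set, with a mean of 9.88. Another probe set of Cxcl12, with a mean of 9.29, was called lower, at -0.49. A dim probe set of Cxcl12, with a mean of 5.25, was at 0.01 and not called. The direction of Cxcl12 is therefore not settled. N-cadherin, from Cdh2, went from 12.50 and 12.51 to 12.91 and 12.92, a rise of 0.41 that was not called with hybridization spike scaling. Vim was at -0.23, and at -0.22 without a call when the first TGF-β array was left out, as with poly-A scaling (-0.08).

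Of 19 EMT transcription factor genes 6 fell and 8 rose (5 rose without the first TGF-β array and 4 without the second withdrawal array), with a median of -0.01 that was 0.14 with poly-A scaling. Snai1, the Snail repressor, went from 7.06 and 7.17 to 5.46 and 5.23, next to control at 5.12 and 5.04. Foxc2 fell by 1.08, Zeb2 by 0.89 and Zeb1 by 0.36 (the last not called with poly-A scaling), and all stayed above control, Zeb1 by 0.64. A second probe set of Zeb2, with a mean of 6.61, was also called lower, at -0.87. A dimmer one, with a mean of 5.69, was called higher, at 0.30, and others at -0.35 and 0.09 were not called. The 3 other probe sets of Zeb1 were at -0.24 to 0.11, with 1 called lower. Prrx1, a homeobox factor of mesenchyme, rose by 1.59 from 6.87 and 6.98 to 8.44 and 8.59. Twist1 was at 0.46, and at 0.44 without a call when the second withdrawal array was left out. It stood 2.23 above control. Within the Snail family, Snai1 fell by 1.77 and Snai2 was at 0.28 on its brighter probe set and at -0.05, not called, on the other. The first had 0.20 to 0.31 and no call when the first or second TGF-β array or the second withdrawal array was left out.

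Epithelial junction and polarity genes leaned upward, with 16 of 36 higher and 7 lower (4 lower without the second TGF-β or the second withdrawal array) and a median of 0.18, which turned to -0.04 with hybridization spike scaling. Cdh1 rose by 3.49 ± 0.066. Ocln, occludin of the tight junction, went from 4.89 and 5.03 to 7.83 and 7.95, and Dsp, which anchors desmosomes to keratin, from 8.56 and 8.53 to 10.35 and 10.28. The desmoglein gene Dsg2 rose by only 0.85 with a difference of -2.73 from control. The claudin gene Cldn4 and the plakophilin gene Pkp1, both raised under TGF-β, fell by 2.19 and 1.95. Of 14 keratins 2 rose and 4 fell (2 without the second TGF-β array), and the median of -0.14 was 0.01 with poly-A scaling. Together 42.9% of keratins were called, against 43.9% of all genes. Krt19 went from 9.04 and 9.05 to 11.93 and 12.02, while Krt7, a keratin of simple glandular epithelium, went from 9.74 and 9.69 to 5.45 and 5.60, far under control at 10.14 and 10.31. Krt18 was at 0.00 (adjusted p = 0.981). Krt8 was at -0.22, and at -0.21 to -0.22 without a call when either TGF-β array or the first withdrawal array was left out. Epcam was at -0.27, but its probe sets were called in opposite directions, and its call was lost without either TGF-β array or the second withdrawal array (-0.21 to -0.28).

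Among 20 epithelial transcription and splicing regulators 6 rose and 2 fell (0 without either TGF-β array or the second withdrawal array, 1 without either control array or the first withdrawal array), with a median of 0.04 that turned to -0.18 with hybridization spike scaling. Hnf4a and Foxa2, factors of endodermal epithelia, rose by 2.61 and 1.92, from 7.07 and 7.01 to 9.63 and 9.67 and from 7.80 and 8.11 to 9.87 and 9.88. Klf4 rose by 1.24. Esrp2, which drives epithelial exon choice, rose by 1.04, while its relative Esrp1 was at 0.01 (adjusted p = 0.959) and dim on all arrays. Hnf4a, Foxa2, Klf4 and Esrp2 remained called under control, by 0.16 to 0.78. Of 11 surface protease genes 2 rose and 2 fell (0 fell without either control array, the first TGF-β array or the first withdrawal array, 1 without either other array), with a median of -0.17. Their called share was 36.4%, also under that of all genes. The matriptase inhibitor gene Spint2 rose by 2.39, from 8.26 and 8.30 to 10.64 and 10.71.

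Of the 14 largest rises, 5 were members of the plasma protein list and 5 of the brush border list, 1 (Abca1) was a sterol efflux gene, and Ms4a4b, Akr1c19 and Pamr1 were in no list. The lists were chosen with earlier results of these data known, so these memberships only describe the rises and are no evidence of a concentration. Of 25 plasma protein and carrier genes 13 rose, 12 of them by at least 1, and 1 fell (0 without the first TGF-β or the second withdrawal array, 2 without the first withdrawal array), with a median of 0.30. With probe sets ending in x, s or a left out, 8 rose. The α1-antitrypsin gene Serpina1b went from 5.58 and 4.99 to 11.32 and 11.31 and Serpina1c from 5.38 and 5.19 to 10.47 and 10.54. Members of that family are nearly identical, so a probe set of 1 member may bind transcripts of another. The selenium carrier Selenop went from 8.85 and 8.78 to 13.66 and 13.65, the copper oxidase Cp from a mean of 8.03 to 12.79 on both arrays, and the retinol carrier Rbp4 from 7.54 and 7.38 to 11.97 on both. Hemopexin, from Hpx, rose by 3.76, albumin, from Alb, by 3.61 and the thyroid hormone carrier Ttr by 2.23. The list holds other liver products that were not called: Apob at -0.09, Fga at 0.11 and Ahsg at -0.18. Against control, Rbp4 ended 0.55 lower and Hpx 0.15 lower (not called), while Selenop ended 1.24, Cp 2.26 and Alb 3.25 higher.

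Of 31 brush border and intestinal enzyme genes 11 rose, 10 by at least 1, and 3 fell (1 without the first TGF-β or the second withdrawal array). Together 45.2% were called, against 43.9% of all genes. All 17 not called were dim, with means under 6.86, the median of all genes, and the list's median of 0.06 turned to -0.16 with hybridization spike scaling. Lgals4 and Lgals2, galectins of gut epithelium, went from 4.99 and 4.79 to 10.68 and 10.76 and from 8.40 and 8.62 to 12.95 and 12.96, both within 0.32 of control. The pantetheinase gene Vnn1 went from 6.07 and 5.97 to 11.36 and 11.42, and the sulfotransferase gene Sult1c2 from 5.46 and 5.54 to 11.19 and 11.20, which is 3.38 above control. The peptidase gene Enpep went from a mean of 3.77 to 8.86, with control at 3.83 and 3.91, so its level after withdrawal was not that of untreated cells. Villin, from Vil1, which bundles microvillar actin, rose by 2.27, and Ezr, which ties it to the membrane, by 1.44. Tspan8 rose by 4.34 and Cdh17 by 2.82.

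**Figure D3:**
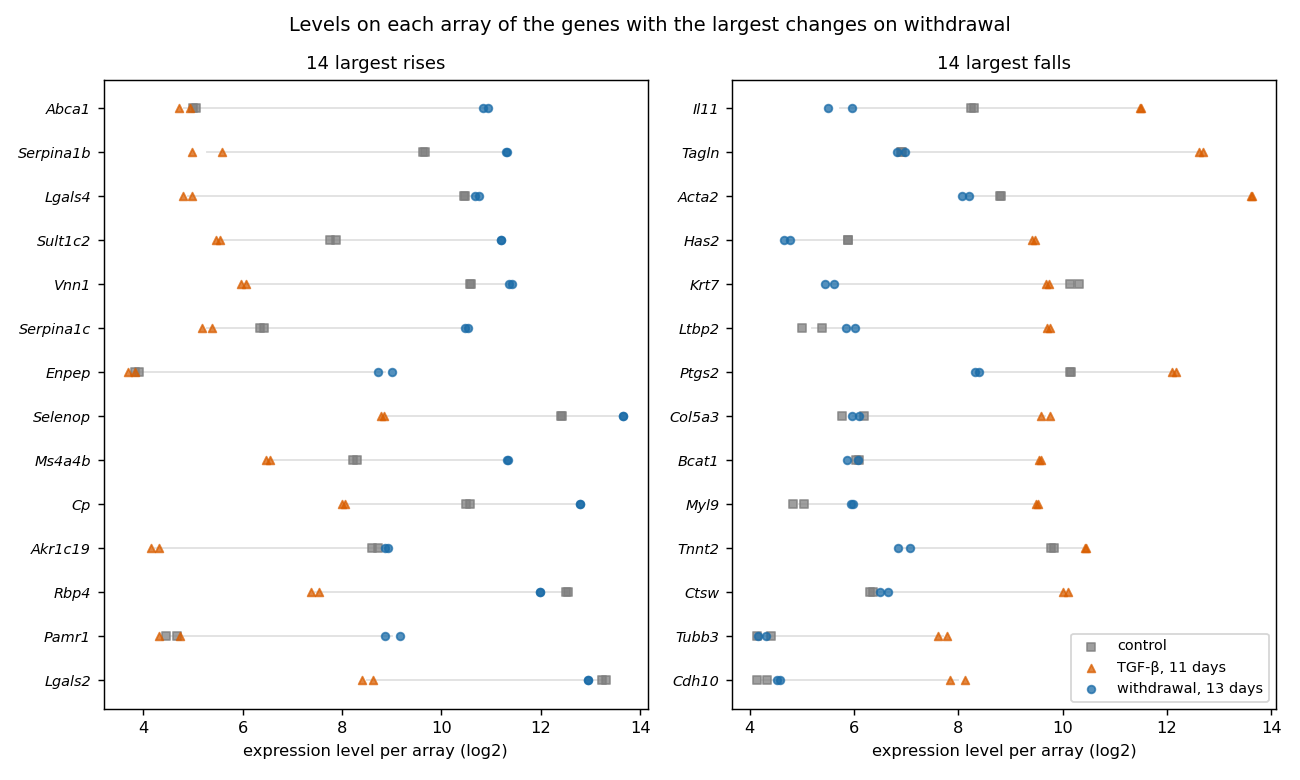
Log2 level on each of the 6 arrays (horizontal) of the 14 largest rises (left) and 14 largest falls (right); grey squares are control, orange triangles TGF-β, blue circles withdrawal. For Lgals4 and Tagln the blue circles return to the grey squares, while for Abca1 and Enpep the grey squares lie with the triangles and for Krt7 they lie near them.

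Among the 14 largest falls outside the lists above, Il11, a cytokine of the IL-6 family, went from 11.51 and 11.47 to 5.96 and 5.50, a difference of -2.54 from control. Bcat1, a branched-chain aminotransferase, Tubb3, a neuronal β-tubulin, and the cadherin gene Cdh10 fell by 3.59, 3.46 and 3.44 to within 0.32 of control, and none of these ended with a called difference from it. The 3 other probe sets of Cdh10 were dim, with means up to 5.02. They were at -0.53 to -0.26, 2 of them called. The 2 other sets of Bcat1 were at -2.27 and -0.81, both called. Ctsw, a cathepsin of lymphocytes, fell by 3.47. Tnnt2, the troponin T gene, fell by 3.48 on the brightest probe set and was at -3.62, also called, on another. It was at 0.04 on the set that remained when those ending in x, s or a were left out. Among the rises, Akr1c19, an aldo-keto reductase gene, rose by 4.66, and Ms4a4b by 4.83, with a second, dim probe set of the latter at -0.17.

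Abca1, which exports cholesterol to apolipoprotein particles, showed the largest rise of the named genes, 6.06 ± 0.086 (adjusted p = 1.01e-06). It was at 4.93 and 4.72 under TGF-β, 10.94 and 10.83 after withdrawal, and 5.05 and 5.01 in control. Control and TGF-β thus lay together near the floor of the array, and only withdrawal was bright. Its 2 other probe sets were dim and rose by 0.34 to 0.35, 1 of them called. Of 14 sterol efflux and LXR target genes 9 rose and 1 fell (0 without the second withdrawal array), with a median of 0.77. Pltp, which transfers phospholipid between lipoproteins, rose by 1.99, Nr1h3, the sterol receptor LXRα, by 1.24, the acyltransferase gene Lpcat3 by 1.22 and the cholesterol exporter of lysosomes Npc1 by 0.83. Other LXR targets did not follow: Abcg1 was at -0.06, Abcg5 at -0.33 and Abcg8 at -0.05, none called, and Mylip fell by 0.51. The promoter of Abca1 (chr4:53159896-53160095, minus strand, 200 bases before the start) is shown because control and TGF-β cells had so little of this transcript, with the E-box CACGTG in capitals 147 bases before the start.
Abca1: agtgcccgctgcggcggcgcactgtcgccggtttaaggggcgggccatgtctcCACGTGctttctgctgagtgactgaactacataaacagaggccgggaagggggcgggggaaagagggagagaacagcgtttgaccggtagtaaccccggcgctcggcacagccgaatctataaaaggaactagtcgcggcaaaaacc
The LXR motif DR4 was searched only as 2 exact copies of AGGTCA spaced by 4 bases. That form was in 0 of the windows of the largest rises and in 0.0148% of all genes. Imperfect half-sites were not searched, in Abca1 or elsewhere, so these counts do not show that an LXR site is missing. Of the 12 windows of the largest rises, 5 held CACCTG, 5 CAGAC, 3 the AP-1 motif, 1 the TEAD motif and 0 the exact CArG pattern. Of the 11 of the largest falls the counts were 4, 7, 1, 3 and 1, with the near matches in Acta2 not counted. Over all genes the shares were 19.4%, 45.8%, 5.16%, 14.4% and 1.62%, in that order. CACGTG, searched after the values were seen, was in 1 of these 12, Abca1 (8.33%, against 6.86% of all genes), and in 0 of these 11. Its place in the Abca1 promoter therefore says little.

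Of 20 cholesterol biosynthesis and uptake genes 9 fell and 5 rose (1 without either TGF-β array or the second withdrawal array, 3 without either control array), with a median of -0.13 that was 0.02 with poly-A scaling. Hsd17b7, Idi1 and Fdps, enzymes of the sterol and isoprenoid route, fell by 1.09, 1.04 and 0.81, while Srebf2, the factor that drives that route, rose by 0.69. Of 22 fatty acid and PPAR genes 9 rose and 6 fell. Plin4, a lipid droplet coat gene, went from 5.12 and 4.97 to 9.17 and 9.42. Cpt1a, the gate of mitochondrial fatty acid uptake, rose by 1.96, Plin3 by 1.76, Acadm, a β-oxidation enzyme, by 1.61 and the nuclear receptor Pparg by 1.26, and the fatty acid carrier Fabp5 fell by 1.62. That list's median of 0.01 turned to -0.21 with hybridization spike scaling.

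Lysosomal genes showed the highest median of the 44 lists, 1.08: of 26 measured, 24 rose, 14 of them by at least 1, and 0 fell, and the median was 0.86 to 1.23 under the 3 scalings. Hexa, a hexosaminidase that breaks down gangliosides, went from 8.90 and 8.82 to 11.46 and 11.47, Mcoln1, the calcium channel of the lysosome membrane, from 8.89 and 8.90 to 11.15 and 11.14, and Gaa, which breaks down glycogen, from 9.30 and 9.26 to 11.36 and 11.50. The protective protein gene Ctsa rose by 2.09, the neuraminidase gene Neu1 by 1.97, the membrane protein gene Lamp2 by 1.39 and the cathepsin gene Ctsd by 1.01. Tfeb, the factor known to drive these genes, was at 0.33 (adjusted p = 0.0267). The members not called were Ctsl at -0.04 and Ctss at -0.05, the latter dim. Lysosomal levels had moved little under TGF-β (median 0.24), so withdrawal lay a median of 1.35 above control.

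TFEB and its relatives bind the E-box CACGTG, which was searched after the values of these genes were known. Of the 22 lysosomal genes with a window 7 held it (31.8%, against 6.86% of all genes): Ctsa, Ctsd, Ctsl, Gaa, Glb1, Lamp1 and Mcoln1. Ctsl, which did not pass the test, was among them. Mcoln1 (chr8:3500319-3500518, plus strand) is shown because its 200 bases held the motif 2 times, in capitals 71 and 45 bases before the start.
Mcoln1: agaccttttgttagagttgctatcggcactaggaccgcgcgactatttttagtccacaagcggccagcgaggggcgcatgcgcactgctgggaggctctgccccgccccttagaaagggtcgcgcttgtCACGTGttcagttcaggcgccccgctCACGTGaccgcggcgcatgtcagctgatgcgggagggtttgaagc

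Proliferation genes showed the lowest medians. All 30 mitosis genes measured fell, with a median of -1.37, and of 34 MCM and replication genes 32 fell and 0 rose, with a median of -0.99. With poly-A scaling 29 and 26 fell, and with cyclic loess 1 replication gene rose. The medians were -1.59 to -1.22 and -1.21 to -0.84 under the 3 scalings. Aurka, the spindle pole kinase, went from 10.68 and 10.62 to 8.54 and 8.49, its relative Aurkb fell by 1.93, and Cdk1, the kinase that starts mitosis, went from 11.23 and 11.22 to 9.46 and 9.40. Cdc6, which loads the replicative helicase, went from 8.53 and 8.57 to 6.31 and 6.15, the ribonucleotide reductase subunit Rrm2 fell by 1.74 and the helicase subunit Mcm5 fell by 1.58. Cdt1 was at 0.10 and Orc1 at -0.25, neither called. Both lists were already under control during TGF-β, by medians of 0.42 and 0.35, so withdrawal did not bring them back: it lay under control by medians of 1.78 and 1.23. For this reason control, TGF-β and withdrawal are drawn in that order in the plot of lysosomal and cell cycle genes.

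**Figure D4:**
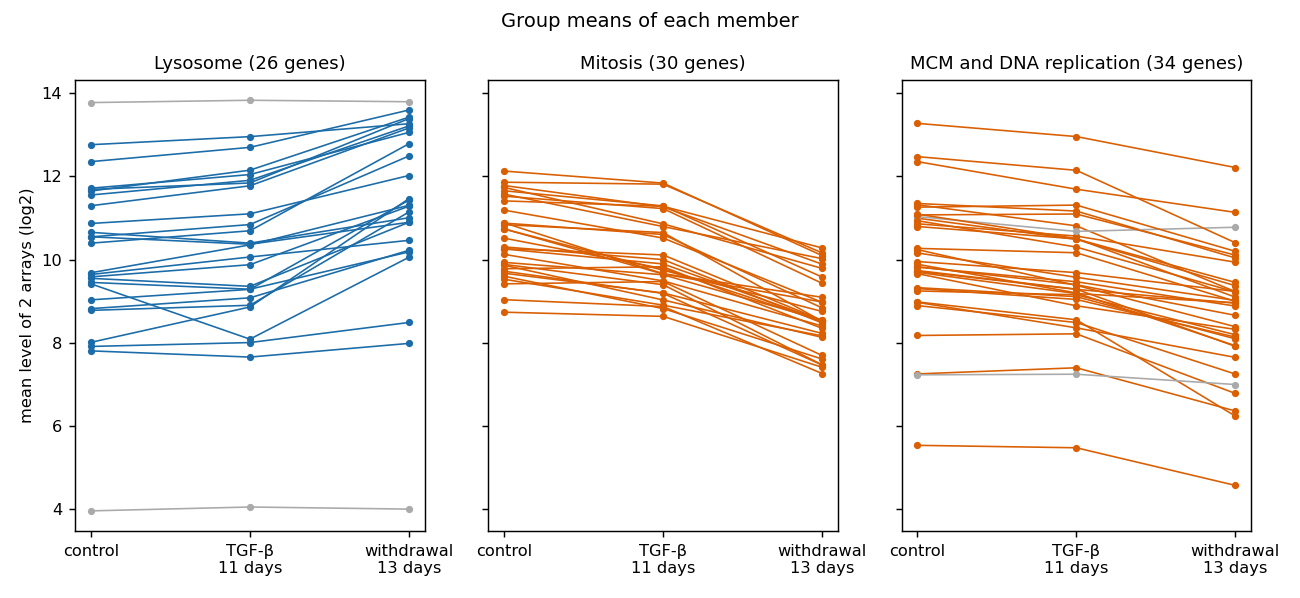
Group mean log2 level of 2 arrays (vertical) in control, TGF-β and withdrawal (horizontal), 1 line per gene, for 26 lysosomal, 30 mitosis and 34 replication genes; blue lines were called higher on withdrawal, orange lower, grey not called. The 24 blue lysosomal lines turn up, and all 30 mitosis lines and 32 replication lines turn down, in the last step.

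Genes of mitosis carry 2 known promoter elements, the CHR element TTTGAA and the CCAAT box, both also searched after the values were known. Of 26 mitosis genes with a window 10 held TTTGAA (38.5%, against 18.3% of all genes) and 19 held CCAAT (73.1%, against 37.5%), on either strand. Of 27 replication genes 4 held TTTGAA (14.8%), under the share of all genes, and 17 held CCAAT (63.0%). CCAAT was also in 8 of the 12 windows of the largest rises (66.7%) and 15 of 27 contractile genes (55.6%). It was in 5 of the 11 windows of the largest falls (45.5%) and 6 of 22 lysosomal genes (27.3%). A high share of CCAAT was thus not particular to cell cycle genes. Cdk1 (chr10:69352913-69353112, minus strand) is shown as a member with TTTGAA 2 times in 200 bases, in capitals 71 and 15 bases before the start.
Cdk1: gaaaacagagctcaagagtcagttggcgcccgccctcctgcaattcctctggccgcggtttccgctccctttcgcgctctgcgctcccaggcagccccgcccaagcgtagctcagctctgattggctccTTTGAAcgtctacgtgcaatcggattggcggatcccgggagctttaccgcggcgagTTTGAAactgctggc

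Of 23 CDK inhibitor, G1 cyclin and E2F genes 13 fell and 8 rose, with a median of -0.30. E2f7, a repressor of the E2F family, fell by 2.39, the S-phase cyclin Ccne2 fell by 2.21 and its relative Ccne1 fell by 1.48. The inhibitor locus Cdkn2a rose by 1.54, from 8.75 and 8.76 to 10.26 and 10.34, and the pocket protein genes Rb1 and Rbl2, which hold E2F in check, by 1.27 and 1.16. Cdkn1a, which encodes p21, fell by 0.30. Of 17 p53 target and apoptosis genes 13 rose and 4 fell, with a median of 0.59. Trp53inp1 rose by 1.65, Sesn1, a stress-induced inhibitor of mTORC1, by 1.44 and the survival gene Bcl2l1 by 1.19, and Gadd45b fell by 1.81.

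Among TGF-β ligands, receptors and feedback genes 10 of 26 fell and 8 rose, and the median of -0.10 was 0.05 with poly-A scaling. The ligand subunit Inhba, of activin, went from 13.07 and 13.10 to 10.77 and 10.73, beside 11.08 and 11.12 in control. Of the receptors, Tgfbr1 rose by 1.27 back to 0.16 under control, and Tgfbr2 rose by 0.98 to 1.65 above it. Of the feedback inhibitors, Pmepa1 fell by 1.53 and Smad7 by 0.61, while Smad6, which restrains BMP signals, rose by 1.35. Of 19 BMP and Id genes 7 rose and 5 fell (3 without either TGF-β array or the second withdrawal array), and the median of -0.10 was 0.05 with poly-A scaling. The Id proteins block basic helix-loop-helix factors. Id2 went from 7.40 and 7.23 to 11.35 and 11.26 and Id1 from 9.08 and 9.12 to 10.23 and 10.30, still 1.39 and 1.37 under control. The ligand Bmp4 went from 5.95 and 5.79 to 9.46 and 9.40, above control at 7.57 and 7.63, and Bmp2 rose by 2.34. The target gene Msx2 fell by 1.48.

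Of 29 Wnt and Notch genes 9 rose and 7 fell, with a median of -0.04 that was 0.11 with poly-A scaling. The receptor Notch1 went from 7.33 and 7.54 to 10.70 on both arrays and Notch3 rose by 1.85, while the ligand Jag1 fell by 1.92. Notch3 was at 0.46, not called, with probe sets ending in x, s or a left out. Of 33 cytokine, chemokine and growth factor genes 14 fell and 13 rose. Besides Il11, the endothelin gene Edn1 fell by 2.11 and Hbegf, an EGF receptor ligand, by 1.57, while the chemokines Cxcl5, Ccl7 and Ccl20 rose by 2.32, 2.24 and 1.69. Of 15 prostaglandin genes 4 fell (2 without either TGF-β array or the second withdrawal array) and 3 rose, together 46.7%, against 43.9% of all genes. Ptgs2, the inducible cyclooxygenase, went from 12.18 and 12.10 to 8.32 and 8.39, under control at 10.17 and 10.14, while the prostaglandin transporter Slco2a1 rose by 1.52. Of 27 immediate early and ERK feedback genes 10 rose and 11 fell. Egr1 went from 7.72 on both TGF-β arrays to 11.95 and 11.98, with control at 7.55 and 7.60, Fos rose by 2.76 and the ERK phosphatase Dusp6 by 2.10, and Phlda1 and Fosl1 fell by 1.49 and 1.15. The medians of these 3 lists were within 0.05 of 0 and each turned sign under a spike scaling.

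Genes of the unfolded protein response leaned downward, with 13 of 23 lower (7 with poly-A scaling), 4 higher (2 with hybridization spike scaling) and a median of -0.37. Manf, a secreted chaperone-like factor, fell by 0.96, the transcription factor Xbp1 by 0.94 and the chaperone Hspa5 by 0.68, while Atf6, the membrane-bound factor of another branch, rose by 1.21. Of 23 amino acid stress genes, targets of ATF4, 15 fell and 4 rose (2 without either control array, 1 without either TGF-β array), with a median of -0.31. The folate enzyme Mthfd2 went from 10.61 and 10.72 to 8.56 and 8.74, Shmt2 fell by 1.36, Psph by 1.32 and asparagine synthetase, from Asns, by 1.31. Of 20 antioxidant and NRF2 genes 11 rose and 2 fell, with a median of 0.43. The glutathione transferases Gsta4 and Gstm1 rose by 3.40 and 3.09, from 9.06 on both arrays to 12.46 on both and from 8.06 and 8.02 to 11.09 and 11.17, and Gclc, which makes glutathione, by 1.88. Mgst1 rose by 3.41 on its brightest probe set and was at -0.16 on the set left without x, s or a endings. Nqo1 and Hmox1, well-known NRF2 targets, were at -0.16 and 0.19 and not called.

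Of 32 oxidative phosphorylation genes 14 rose, by at most 0.63, and 1 fell (Cycs, cytochrome c, by 0.74). Without either TGF-β array 9 rose, with poly-A scaling 9, with cyclic loess 22, and the median of 0.13 turned to -0.08 with hybridization spike scaling. Of 20 glycolysis and hypoxia genes 8 rose and 5 fell. The oxygen sensor Egln3 rose by 1.97 and Bnip3 by 1.11, while the hexokinase Hk2 fell by 0.94. Of 17 retinoid genes 6 rose and 3 fell (1 without the first TGF-β array, 0 without the second TGF-β or second withdrawal array), with the retinoic acid hydroxylase Cyp26b1 at 1.34. Of 14 complement genes 3 rose and 2 fell. C1s1 and C1ra, the proteases of the first complex, went from 4.80 and 5.10 to 9.12 and 9.07 and from 6.52 and 6.55 to 10.00 and 9.96, both over 3 above control, and factor B, from Cfb, rose by 2.32. Of 21 interferon response genes 5 rose and 1 fell (3 without either control array, 2 without the first TGF-β array), by less than 1, with Ifit2 at 0.72. Of 11 MHC class I genes 3 rose and 1 fell (2 without either control array, the second TGF-β or the second withdrawal array), with the peptide loader Tapbp at 1.04. Of 17 ribosomal protein genes 3 rose, by at most 0.25, and 0 fell (1 without the second TGF-β array). The medians of these 7 lists were between -0.02 and 0.13 and each turned sign under a scaling. In the order given, 46.9%, 65.0%, 52.9%, 35.7%, 28.6%, 36.4% and 17.6% of members were called, against 43.9% of all genes.

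Genes that TGF-β itself had left within 0.5 of control also moved. The largest rises among them were Abca1 and Enpep, described above, and Pamr1, which went from 4.32 and 4.74 to 8.87 and 9.16, followed by Plin4, Egr1, C1s1, Xdh at 4.12, Aqp5, a water channel, at 4.02, Ccdc3 at 4.01 and Alb. Aqp5 went from 7.49 and 7.22 to 11.34 and 11.42, and xanthine dehydrogenase, from Xdh, from 5.60 and 5.44 to 9.63 and 9.66. The largest falls were smaller: Dynap fell by 2.71, from 8.49 and 8.50 to 5.72 and 5.84, Cdc6, Ccne2, Rab26os by 2.20, Aurka, Rgs20, a regulator of G proteins, by 2.04, Mthfd2, Ppa1, a pyrophosphatase, by 1.99 and Rad51ap1, a recombination factor, by 1.94. The rule chose these genes on the position of TGF-β against control, so their distance from control after withdrawal follows from their choice.

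Markers of other cells were counted beside these results. Of 14 luminal mammary markers 3 rose and 0 fell (1 without the second TGF-β array). Muc1, an apical mucin, went from 6.42 and 6.32 to 9.87 and 9.86, while the milk protein genes Csn2 and Wap were dim on all arrays. Of 16 basal markers 3 rose, among them the hemidesmosome integrin Itgb4 at 1.56, and 5 fell (3 without the first TGF-β array), Acta2 foremost. Of 16 macrophage and leukocyte markers 3 rose and 0 fell (1 without the second TGF-β array): Cd14 by 1.86, Cd68 by 1.05 and Mrc1 by 0.56, the last at 0.46 without a call when the second withdrawal array was left out. The summed level of the list was 10.64 to 10.68 under TGF-β, 11.86 to 11.90 after withdrawal and 11.77 to 11.78 in control (log2 of the sum). Its defining genes Ptprc, Adgre1 and Itgam had means of 3.70 to 4.81 in both treated groups, with no call. Of 14 endothelial markers 1 rose, Flt1 at 0.30, and 0 fell (1 without the first TGF-β or the first withdrawal array), with a summed level of 9.84 to 9.87 under TGF-β and 9.80 to 9.82 after withdrawal. Of 10 adipocyte markers 3 rose and 0 fell (1 without the second withdrawal array): Pparg at 1.26, Cebpa at 0.47 and Cd36 at 0.29, with a summed level of 8.89 under TGF-β and 9.40 to 9.41 after withdrawal, and Adipoq and Fabp4 dim throughout. No marker is listed at 0, since RMA leaves no zeros. The medians of these 5 lists were within 0.08 of 0 and each turned sign under a spike scaling. The part of other cells in the results was not tested.

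**Figure D5:**
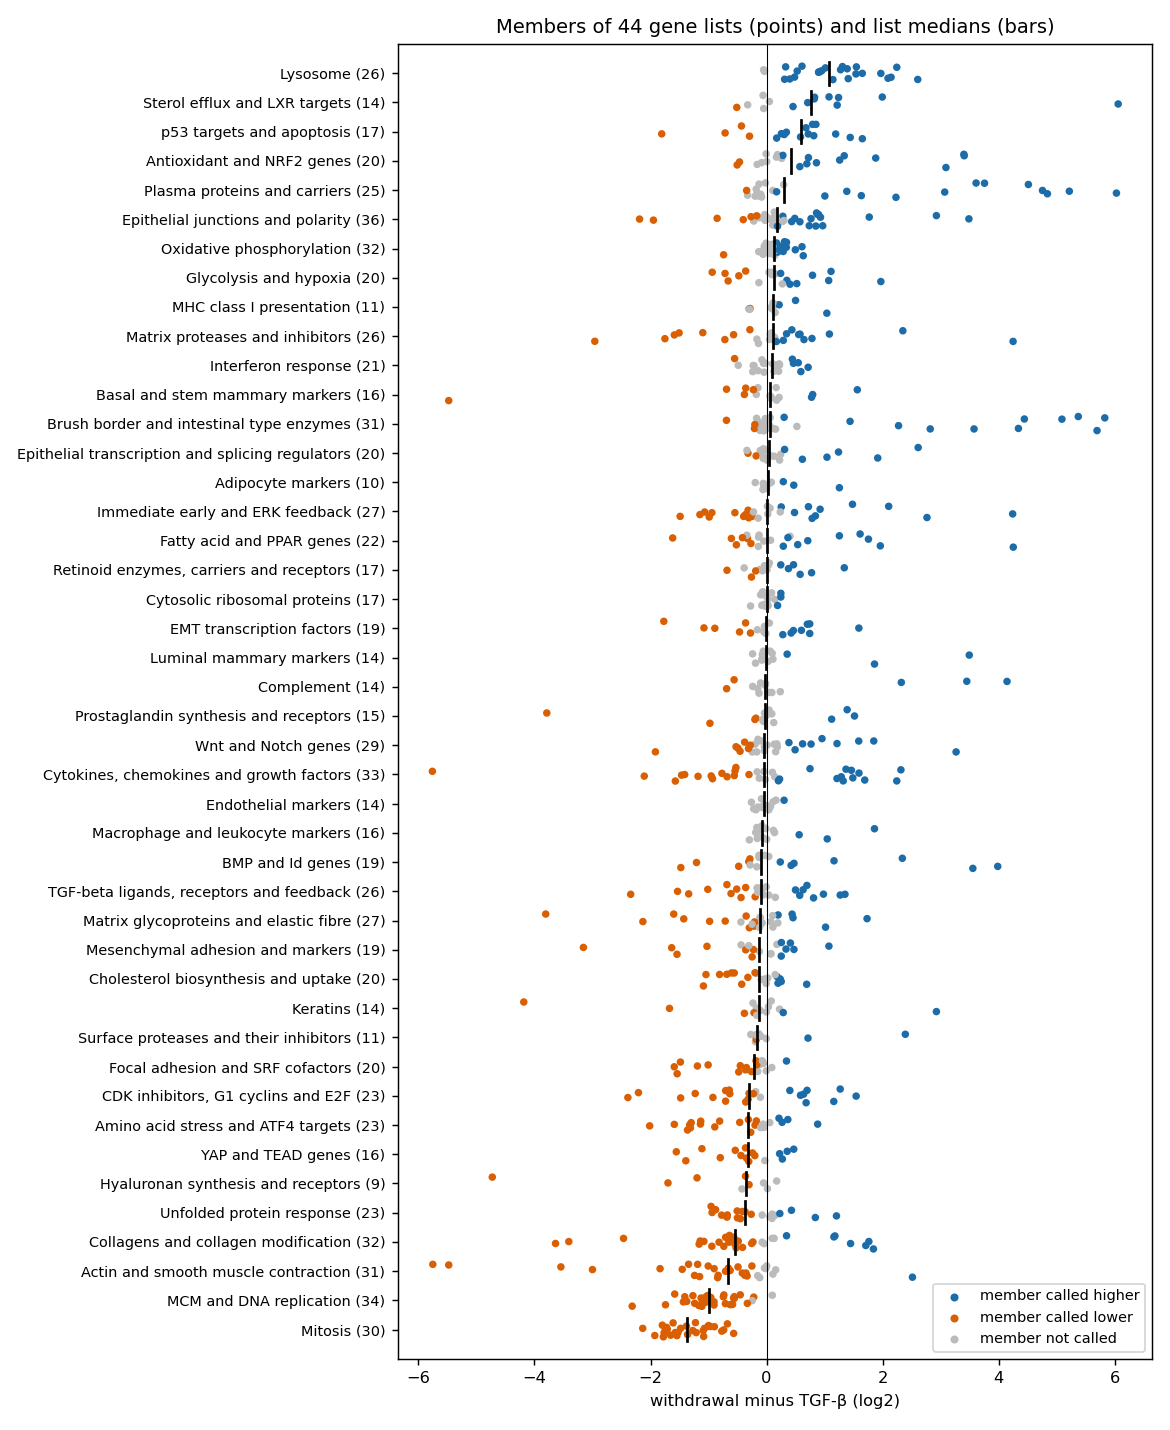
Withdrawal minus TGF-β (log2, horizontal) for each measured member of 44 gene lists (vertical, members in brackets), with black bars at the list medians; blue members were called higher, orange lower, grey not called. Lysosomal genes stand at the top with a median of 1.08 and mitosis genes at the bottom with -1.37; the medians of 28 lists, none over 0.18 in size, turned sign under at least 1 of 3 scalings.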

How the data were processed

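Each of 6 Affymetrix 3' IVT arrays has a deposited log2 value per probe set, made by the authors with RMA, per the submitters' processing notes. The RMA software and which arrays it took together: not given in the sources used here. RMA quantile normalises, so a shift shared by all genes is removed, and with 2 arrays a group their number limits the precision. Per the labels' protocols total RNA from a column kit was labelled with poly-A control RNAs. No detection calls were used, so low values are not separated from background, and differences of dim genes are understated.

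Of 45101 probe sets, 64 controls, 932 with several symbols and 9160 with none were left out. The 34945 with 1 symbol of the platform annotation gave 18193 genes, each read from its brightest probe set, by the mean of 6 arrays. limma 3.58.1 in R 4.3.3 (lmFit, eBayes, 3 residual and 2.857 prior degrees of freedom) was fitted to all 6 arrays in 3 groups without covariates, two-sided, with Benjamini-Hochberg adjustment over all genes at 0.05. The script was tested on simulated data. The median standard error was 0.0701 and the smallest difference called 0.151. An exact permutation test of 2 against 2 arrays cannot go below p = 0.333.

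The members and lists were chosen with earlier results of these data known, and a list count is a description with no set test. Named genes were the 14 largest rises and falls among called, non-overlapping genes whose higher mean was at least the median of all gene means, the 10 largest each among those within 0.5 of control under TGF-β, up to 5 called and 3 uncalled members per list, and set markers, with clone names left out. The microRNA host locus among these is not reported. Many other list members (such as Loxl1, Lox, Pcolce, Hpx, Tspan8, Tfeb and Cxcl12) were named beyond this rule, after their values were seen, and not every gene the rule gave is printed. Alternatives were another array set, a replicate block, an intensity trend, a filter on dim genes, other probe set rules, 3 scalings, a threshold of 0.01 and each array left out. Tables and figures used Python 3.11.15, pandas 2.3.3 and matplotlib 3.10.9. Promoters came from a RefSeq table (GRCm38.p6) with 12 of the 14 largest rises and 11 of the 14 largest falls, and the CHR element, the CCAAT box and the CACGTG motif were added after values were seen.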

Additional observations from a re-analysis of the deposited data

How the results depend on the processing

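The main counts were 3960 higher and 4023 lower, 874 and 568 by at least 1. Hybridization spike scaling gave 2146 higher, 7772 lower and 908 lower by at least 1, and poly-A scaling 3506 higher and 1500 lower. Both scalings move all genes of an array by the same amount, set by its spikes. These amounts also differed within groups. Mean poly-A spike levels were 8.68 and 8.38 on the control arrays, and mean hybridization spike levels 11.35 and 11.17 on the withdrawal arrays. The part of either in these counts was not tested. The other settings stayed within 1.5 times. With each array left out in turn, 3388 to 3767 were higher and 3327 to 3734 lower, and 855 to 902 and 555 to 594 by at least 1; leaving out a control array leaves the fit of the 4 treated arrays. With the replicate number as a block, 3854 were higher and 3834 lower (873 and 568 by at least 1). The numbers do not pair the arrays, since the deviations of replicate 1 correlated at -0.016 to 0.0067 between groups. Of 351 named genes 16 values reversed. With the mean of probe sets these were Itgav at -0.16, Lims1 at 0.26, Hmga2 at 0.19, Cyp51 at -0.22, C2 at 0.68, Rps9 at -0.19 and Rps18 at -0.034; without probe sets ending in x, s or a, Tnnt2 at 0.043, H2-D1 at -0.31, C2 at 0.93, Mgst1 at -0.16, Rps9 at -1.02, Rps18 at -0.40 and Snai2 at -0.055; with hybridization spikes, B2m at -0.0011 and Rps19 at -0.029. These probe set rules read other probe sets, and their cause was not tested. Dim signal limits what can be said of genes near the floor.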
